A study of Arabidopsis thaliana with 15 samples.

Results

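The comparison of flg22 with mock covered 6 of the 15 libraries of the series and all 24618 genes of its count table, of which 18230 had enough counts to be tested. Every gene with enough counts entered the test, and the question was which kinds of genes flg22 raised. The gene lists by which the answer is described were drawn up with earlier results of these data known. The flg22 group held 3 libraries of wild-type Arabidopsis thaliana Col-0 seedlings, 6 days old, exposed to the peptide at 250 nM according to the sample labels. The mock group held 3 libraries of Col-0 seedlings of the same age without the peptide, and both treatments were given in liquid medium. The labels call the tissue whole seedlings, whereas the methods describe pooled roots harvested after 3 h and a higher peptide concentration.

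The tissue was checked against marker genes. The 17 root markers summed to 1613, 1537 and 1508 CPM (read counts scaled to a common library size, with TMM factors within the 6 libraries) in the flg22 libraries and to 1422, 1381 and 1383 CPM in the mock libraries, and each of them was detected. The 14 markers of green tissue in the table summed to 335, 211 and 80.3 CPM in flg22 and to 135, 208 and 198 CPM in mock. RBCS1A, a small subunit gene of Rubisco and usually among the most abundant transcripts of leaves, stood at 66.9, 58.1 and 8.93 CPM in flg22 and 26.2, 41.0 and 37.7 CPM in mock. Root markers were present at a higher summed level than shoot markers in every library. The groups overlapped for the shoot markers and did not overlap for the root markers, whose sum was higher in flg22. The root markers did not move together. Of the 17, 9 had a positive fold change, against 49% of all genes tested, with a median log2 fold change of 0.0 and 0 called. CASP1, a Casparian strip gene of the endodermis, had 191, 219 and 289 CPM in flg22 and 176, 164 and 164 CPM in mock. GL2 and SMB went the other way. GL2 had 17.4, 17.1 and 16.8 CPM in flg22 and 23.6, 20.9 and 21.5 CPM in mock. SMB had 12.1, 9.76 and 7.16 CPM in flg22 and 15.4, 14.7 and 14.0 CPM in mock. flg22 replicate A held the most shoot signal and flg22 replicate C the least, and the part of either marker set in the results was not tested. Total counts ranged from 7730924 to 8748769 in flg22 and from 6094503 to 12182201 in mock, so that 3 counts correspond to 0.246 to 0.492 CPM across the 6 libraries. The spread between replicates exceeded counting noise: for pairs of flg22 libraries chi-square divided by its degrees of freedom was 3.4 to 6.56, and for pairs of mock libraries 3.76 to 11.5.

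As background, flg22 is a conserved stretch of bacterial flagellin. The receptor kinase FLS2 binds it together with the co-receptor BAK1, and the cytoplasmic kinase BIK1 carries the signal to NADPH oxidases and calcium channels. MAP kinases are activated as well. WRKY transcription factors then bind the W-box, a short element with the core TTGAC, in promoters of defence genes, and in roots this response is known to be confined largely to certain zones and cell types unless the tissue is wounded.

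flg22 raised far more genes than it lowered. Of the 18230 genes tested, 150 were differentially expressed genes (DEGs, meaning a change of 2-fold or more at an adjusted p under 0.05) raised by flg22, which is 0.823% of the genes, and 6 were DEGs lowered by it, or 0.0329%. At any fold (adjusted p under 0.05 alone), 463 genes were raised (2.54%) and 207 lowered (1.14%). In each of the 150 raised DEGs the 3 flg22 libraries lay above the 3 mock libraries, against 2191 of all genes tested. The 150 were chosen by their difference between these same libraries, so this separation describes them and is no support for the calls. The median log2 increase of the 150 was 1.48, and 39 of them rose at least 4-fold. Of the 150, 54 belonged to any of the gene lists described here and 96 belonged to none. The number of calls rested on particular libraries. It was 51, 50 and 64 raised DEGs without flg22 replicate B, flg22 replicate C and mock replicate C, although the fold changes of all 150 genes stayed positive in each of those fits, and 47 of the 150 had an adjusted p under 0.05 in each of the 6 fits that left out 1 library.

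The promoters of the raised genes are shown first, because they share a feature that the comparison did not use. The W-box (TTGACC or TTGACT, on either strand) was searched from 250 bases before to 50 bases after the annotated gene start in TAIR10.1. It was present in 98 of the 150 promoters of raised DEGs (65.3%), in 275 of 463 promoters of genes raised at any fold (59.4%), in 48 of 207 promoters of lowered genes (23.2%) and in 6079 of the 18229 promoters of all genes tested that have a full window (33.3%). Windows with 3 or more W-boxes made up 11.3% of the raised DEGs and 1.47% of all genes tested. The share was alike for raised DEGs on the gene lists (36 of 54, 66.7%) and on none of them (62 of 96, 64.6%). A match to these letters is a description of the window and no evidence of binding.

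**Figure D1:**
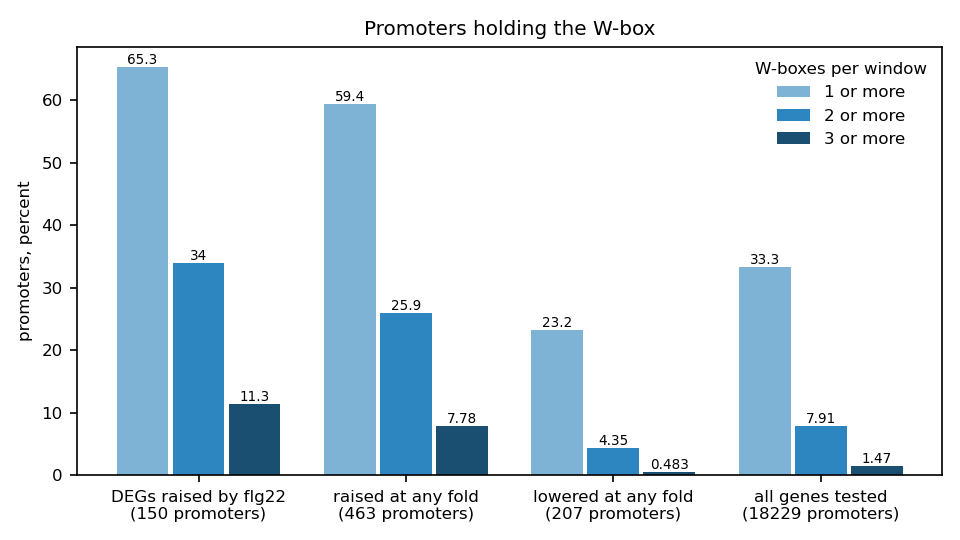
Share of promoter windows (percent, vertical axis) that hold at least 1, 2 or 3 W-boxes, for DEGs raised by flg22, genes raised at any fold, genes lowered at any fold and all genes tested. The bars of the raised DEGs stand at 65.3%, 34% and 11.3%, those of all genes tested at 33.3%, 7.91% and 1.47%.

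Shown here are the 250 bases before the gene start of 4 raised genes with several W-boxes and of FLS2, a raised gene with none, each read 5′ to 3′ along the gene, with W-boxes in capitals.
WRKY30 (chr5:8154711-8154960, TAIR10.1, minus strand): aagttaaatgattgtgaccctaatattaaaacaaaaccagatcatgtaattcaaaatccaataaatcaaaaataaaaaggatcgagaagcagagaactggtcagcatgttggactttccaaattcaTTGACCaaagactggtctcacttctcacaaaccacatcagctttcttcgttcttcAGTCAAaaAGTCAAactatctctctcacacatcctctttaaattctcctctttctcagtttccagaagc
PROPEP3 (chr5:25939312-25939561, plus strand): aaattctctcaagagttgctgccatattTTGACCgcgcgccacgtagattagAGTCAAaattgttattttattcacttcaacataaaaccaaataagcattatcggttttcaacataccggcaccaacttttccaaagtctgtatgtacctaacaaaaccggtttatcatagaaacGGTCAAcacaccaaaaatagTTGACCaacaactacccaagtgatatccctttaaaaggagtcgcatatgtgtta
AT2G43620 (chr2:18095094-18095343, minus strand): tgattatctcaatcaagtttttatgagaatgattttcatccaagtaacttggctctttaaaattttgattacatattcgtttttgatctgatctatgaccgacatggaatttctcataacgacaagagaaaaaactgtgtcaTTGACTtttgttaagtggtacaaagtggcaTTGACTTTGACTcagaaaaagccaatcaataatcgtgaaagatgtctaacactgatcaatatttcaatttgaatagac
AT5G56960 (chr5:23041618-23041867, minus strand): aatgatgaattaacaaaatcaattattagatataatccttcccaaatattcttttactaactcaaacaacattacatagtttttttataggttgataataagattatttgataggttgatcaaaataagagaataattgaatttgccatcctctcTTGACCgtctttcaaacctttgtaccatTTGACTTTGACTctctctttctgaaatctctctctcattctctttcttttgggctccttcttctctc
FLS2 (chr5:18791325-18791574, plus strand): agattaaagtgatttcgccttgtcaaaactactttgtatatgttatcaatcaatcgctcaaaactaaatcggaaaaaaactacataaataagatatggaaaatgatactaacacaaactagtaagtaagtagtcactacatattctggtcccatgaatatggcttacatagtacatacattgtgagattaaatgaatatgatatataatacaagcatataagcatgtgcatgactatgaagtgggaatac
In WRKY30 the 3 matches begin 124, 69 and 61 bases before the gene start. In AT2G43620, a chitinase gene, and in AT5G56960, a basic helix-loop-helix gene, a pair of matches stands side by side with no base between them. PROPEP3 holds 4 matches, as many as the window of any raised DEG.

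Among genes of perception the calls went in 1 direction. Of 30 tested pattern receptors, co-receptors and their cytoplasmic kinases, 12 were raised (40%, against 2.54% of all genes tested), 0 were lowered and 18 did not pass. Its members had a median log2 fold change of 0.44, beside -0.01 for all genes tested. FLS2 (AT5G46330, chr5:18791575-18795908) had 6.12, 8.93 and 9.87 CPM in the flg22 libraries and 1.46, 0.956 and 2.51 CPM in the mock libraries, a log2 fold change of 2.22 (SE 0.33, adjusted p = 0.00796 from edgeR). The groups did not overlap, but the receptor gene was weakly expressed in either. BAK1 had 179, 203 and 205 CPM in flg22 and 146, 147 and 140.1 CPM in mock, a much smaller step of 0.44 (SE 0.07, adjusted p = 0.0156 from edgeR). BIK1 rose by 0.58 (SE 0.11, adjusted p = 0.0202 from edgeR), with 56.9, 75.7 and 65.5 CPM in flg22 and 43.8, 45.6 and 43.6 CPM in mock. FRK1, a receptor kinase gene used as a marker of flg22 signalling, had 15.1, 26.1 and 28.9 CPM in flg22 and 7.93, 7.01 and 8.91 CPM in mock, with replicate A of flg22 the nearest to mock. IOS1, a receptor kinase that associates with pattern receptor complexes, reached 238, 309 and 315 CPM in flg22, against 155, 148 and 155 CPM in mock. The other raised members were SOBIR1 (log2 fold change 0.66), the adaptor kinase of receptor-like proteins, CERK1 (0.60), the chitin co-receptor, PBL2 (0.72), a relative of BIK1, PEPR1 (0.47), a receptor of Pep peptides, RLK7 (0.43), a receptor of PIP peptides, and BIR1 (0.53) and BIR2 (0.53), which hold BAK1 in check. The count of raised members fell to 2, 2 and 3 without flg22 replicate B, flg22 replicate C and mock replicate C, and of the 5 genes given with their libraries IOS1 alone was called in all 6 fits without 1 library.

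Larger families of receptor-like kinases had smaller shares of raised genes. Among 145 leucine-rich repeat (LRR) receptor kinases 19 were raised (13.1%, against 2.54% of all genes tested) and 1 was lowered (median 0.10). This list overlaps the previous one: FLS2, IOS1, SOBIR1, BIR2 and RLK7 stand in both, and 14 of the other 140 were raised. Among 59 lectin receptor kinases 7 were raised (11.9%) and 0 lowered (median 0.38). AT4G08850, an LRR kinase gene, had 410.1, 436 and 446 CPM in flg22 and 247, 169 and 206 CPM in mock, a log2 fold change of 1.05 (SE 0.13, adjusted p = 0.00594 from edgeR). AT4G02410, a lectin kinase gene, had 37.0, 40.5 and 40.1 CPM in flg22 and 21.2, 17.2 and 19.0 CPM in mock. These 2 genes and the S-locus lectin kinase gene B120 (log2 fold change 0.98) were called in all 6 fits without 1 library. Of 18 wall-associated kinases, which bind pectin fragments, 3 were raised (16.7%): the neighbouring genes WAKL4 and WAKL5 (log2 fold changes 1.21 and 1.06) and RFO1 (0.46), a resistance gene against Fusarium. Of 16 cysteine-rich receptor kinases, 2 were raised (12.5%, CRK10 and CRK19), and all 16 had a positive fold change, against 49% of all genes tested. MEE39, an LRR kinase gene with a log2 fold change of 1.21, lost its call in each of the 6 fits and shares 24.7% of its 100-base windows with other places in the genome. The LRR and lectin counts fell to 6 and 2 without flg22 replicate B, to 6 and 2 without flg22 replicate C, and to 7 and 2 without mock replicate C. Without flg22 replicate B the wall-associated and cysteine-rich lists had 0 calls each, without flg22 replicate C 2 and 0, and without mock replicate C 1 each.

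Some intracellular resistance genes were raised. Of 125 tested NLR and TIR proteins, the immune receptors for effectors inside the cell, 8 were raised (6.4%, against 2.54% of all genes) and 0 lowered (median 0.27), and 103 had a positive fold change, against 8933 of the 18230 genes tested. RPP4, which acts against downy mildew, had 4.16, 4.28 and 4.93 CPM in flg22 and 1.94, 2.23 and 1.70 CPM in mock, and 9.73% of its windows occur elsewhere in the genome. RPS4, which acts against Pseudomonas, had 31.8, 34.6 and 33.8 CPM in flg22 and 23, 16.7 and 22.1 CPM in mock, a log2 fold change of 0.69 (SE 0.13, adjusted p = 0.0202 from edgeR). Without flg22 replicate B or C, 0 members of the list were called, and without mock replicate C there were 2. Of 25 receptor-like proteins, which lack a kinase domain, RLP54 (log2 fold change 0.84) and RLP12 (0.68) were raised (8%), and RLP12 was called in all 6 fits.

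Precursors of the plant's own danger peptides rose with the receptors. PROPEP2 and PROPEP3 encode the precursors of Pep peptides, which are perceived by PEPR receptors and amplify the response. PROPEP3 had 26.0, 25.9 and 31.2 CPM in flg22 and 5.99, 8.13 and 5.75 CPM in mock, a log2 fold change of 2.09 (SE 0.16, adjusted p = 0.000474 from edgeR). PROPEP2 had 10.4, 15.2 and 14.9 CPM in flg22 and 4.85, 4.78 and 4.70 CPM in mock, a log2 fold change of 1.5 (SE 0.19, adjusted p = 0.00425 from edgeR). Both were called in all 6 fits without 1 library. The other 11 of the 13 tested precursors did not pass the test, so that 15.4% were raised, against 2.54% of all genes tested.

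Some signalling components were raised. Their shares stand beside 2.54% raised and 1.14% lowered of all genes tested. MPK3, a MAP kinase activated by flg22, had 83.4, 81.6 and 81.7 CPM in flg22 and 53.2, 51.5 and 45.4 CPM in mock, a log2 fold change of 0.72 (SE 0.08, adjusted p = 0.0027 from edgeR), and was called in all 6 fits. MKK9 (log2 fold change 0.59), a MAP kinase kinase, and the phosphatase gene MKP1 (0.35), a negative regulator of MAP kinases, were the other raised genes among 22 of the cascade (3 raised, 13.6%). Of 43 calmodulin-like and calcium-dependent protein kinase genes 11 were raised (25.6%) and 0 lowered (median 0.18). TCH3, a calmodulin-like touch gene, had 118, 158 and 168 CPM in flg22 and 73.9, 46.2 and 45.5 CPM in mock. CML42 had 106, 139 and 155 CPM in flg22 and 64.4, 45.1 and 58.9 CPM in mock, and CML38 rose by 1.26 (SE 0.22, adjusted p = 0.0188 from edgeR). CPK5, a kinase that phosphorylates the oxidase RBOHD, rose by 0.37 and its close relative CPK6 by 0.31 on the log2 scale. The calcium-related count fell to 1 without flg22 replicate B, without flg22 replicate C and without mock replicate C. Among 15 calcium channels and pumps the autoinhibited calcium pumps ACA10 and ACA11 were raised (log2 fold changes 0.38 and 0.62), or 13.3%. Of 5 tested NADPH oxidases RBOHA, with 49.6, 69.3 and 59.5 CPM in flg22 and 35.8, 35.4 and 28.5 CPM in mock, and RBOHF (log2 fold change 0.34) were raised, which is 40% of a list of 5. The pumps and oxidases had 0 calls without flg22 replicate B, flg22 replicate C or mock replicate C. Of 54 class III peroxidases, which make or consume hydrogen peroxide in the wall, 3 were raised (5.56%) and 1 was lowered (1.85%). The most changed of them was AT5G39580, with 391, 576 and 557 CPM in flg22 and 170.5, 157 and 104 CPM in mock, and 0 peroxidases were called raised without flg22 replicate B, flg22 replicate C or mock replicate A.

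**Figure D2:**
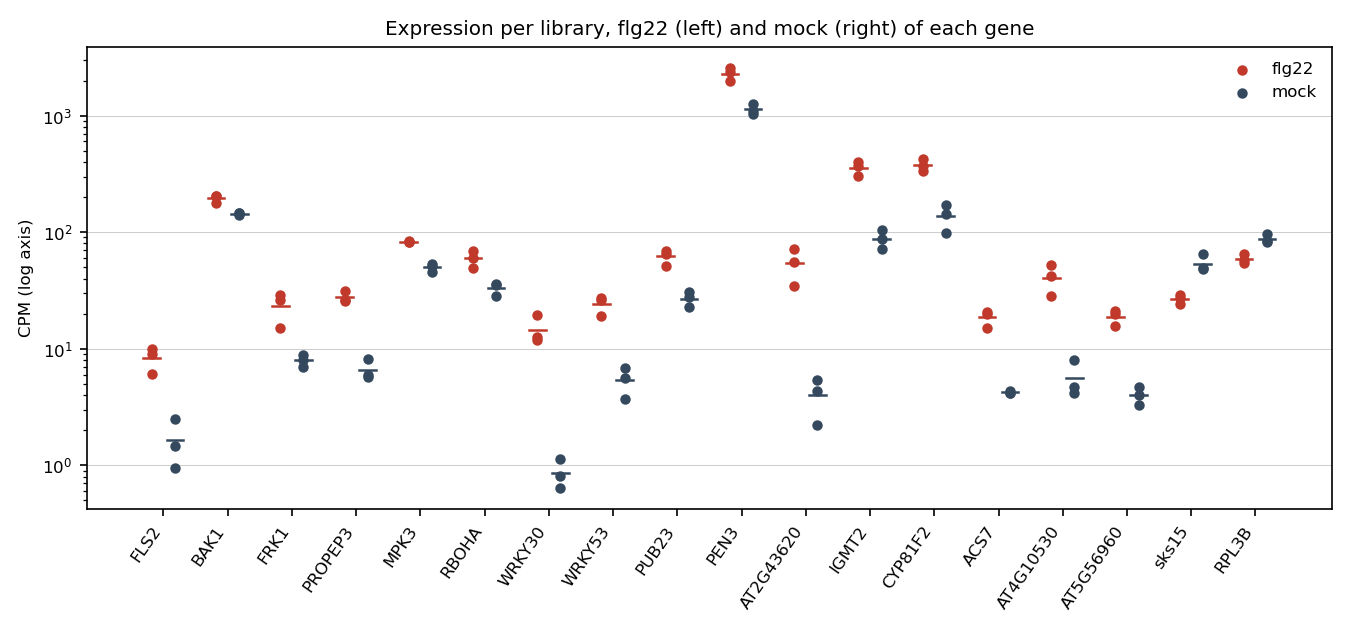
Expression of 18 genes in each library (CPM, log axis), with the 3 flg22 libraries left and the 3 mock libraries right of each gene and a bar at each group mean. The flg22 libraries lie above the mock libraries for every gene shown but sks15 and RPL3B, where they lie below.

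Transcription factors included the largest step of all. Of 58 tested WRKY factors 13 were raised and 0 lowered (22.4%, median log2 fold change 0.26). WRKY30 (AT5G24110, chr5:8153115-8154710) had 11.8, 12.5 and 19.4 CPM in flg22 and 1.13, 0.637 and 0.810 CPM in mock, a 16.9-fold rise (log2 fold change 4.08, SE 0.31, adjusted p = 0.000474 from edgeR). WRKY53, an activator of defence and senescence genes, had 19.0, 26.2 and 27.5 CPM in flg22 and 6.79, 3.67 and 5.59 CPM in mock, a log2 fold change of 2.17 (SE 0.22, adjusted p = 0.00239 from edgeR). WRKY33, which drives camalexin synthesis, had 180, 220 and 233 CPM in flg22 and 87.5, 93.4 and 57.5 CPM in mock. WRKY28 (log2 fold change 2.18), WRKY40 (1.52), WRKY18 (0.85), WRKY29 (0.72) and WRKY11 (0.63) also rose. WRKY30 and WRKY53 were called in all 6 fits, and the WRKY count fell to 2, 2, 5 and 3 without flg22 replicate B, flg22 replicate C, mock replicate A and mock replicate C.

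Other factor families differed in their share of raised genes. Of 14 zinc finger and VQ genes of defence 5 were raised (35.7%), among them ZAT11 with 17.7, 24.0 and 24.3 CPM in flg22 and 7.60, 9.56 and 6.88 CPM in mock, ZAT10 (log2 fold change 1.49) and ZAT6 (0.89). Of 62 AP2/ERF factors 4 were raised (6.45%) and 1, CRF3, was lowered (1.61%). ERF5 averaged 37.9 ± 2.42 CPM in flg22 and 16.6 ± 3.37 CPM in mock (SD, n = 3 each), a log2 fold change of 1.21 (SE 0.14, adjusted p = 0.00341 from edgeR). ERF6 and ABR1 rose by 1.19 and 1.60. Of 93 MYB factors 3 were raised (3.23%, namely MYB51, MYB122 and MYB87), and of 60 NAC factors 1 (ATAF2, log2 fold change 0.55), a share of 1.67% beside the background of 2.54%. ZAT11 and ERF5 were called in all 6 fits, whereas the MYB and NAC calls were lost without flg22 replicate B, flg22 replicate C or mock replicate C. In each of these 3 fits the zinc finger and AP2/ERF lists kept 1 raised gene each.

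Ubiquitin ligases that act on immune signalling were among the genes called in every fit. PUB22, PUB23 and PUB24 are U-box ligases known to dampen pattern-triggered responses together. PUB22 had 112, 127 and 124 CPM in flg22 and 66.7, 70.3 and 71.7 CPM in mock, a log2 fold change of 0.79 (SE 0.08, adjusted p = 0.00142 from edgeR). PUB23 had 51.7, 65.5 and 69.6 CPM in flg22 and 30.4, 27.6 and 22.8 CPM in mock, a log2 fold change of 1.22 (SE 0.14, adjusted p = 0.00401 from edgeR). PUB24 rose by 1.03 (SE 0.13, adjusted p = 0.00472 from edgeR), and these 3 genes were called in all 6 fits. In all, 5 of 22 plant U-box ligases (22.7%) and 3 of 13 ATL RING ligases (23.1%) were raised and 0 of either lowered. Over all genes tested 2.54% were raised. The ATL genes were CNI1 (log2 fold change 1.25), ATL2 (0.75) and ATL6 (0.47), and 0 of that list were called without flg22 replicate B, flg22 replicate C, mock replicate A or mock replicate C.

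The secretory arm of defence had a larger share of raised genes than any other list. Of 18 genes of focal secretion and callose 9 were raised (50%) and 0 lowered, with a median log2 fold change of 0.62. PEN3 (ABCG36), a plasma membrane transporter that exports indolic compounds, had 1964, 2362 and 2561 CPM in flg22 and 1249, 1103 and 1034 CPM in mock, a log2 fold change of 1.02 (SE 0.11, adjusted p = 0.0027 from edgeR). MLO12 had 226, 287 and 326 CPM in flg22 and 150.1, 112 and 145 CPM in mock, and MLO2 rose by 0.64. MLO proteins are needed for entry of powdery mildew. EXO70H1, an exocyst subunit gene, had 78.6, 100.4 and 110.1 CPM in flg22 and 50, 41.6 and 50 CPM in mock, and its relative EXO70B2 rose by 0.67. The syntaxins SYP121 (PEN1) and SYP122 each rose by 0.75 and their partner SNAP33 by 0.60. PEN2, an atypical myrosinase, rose by 0.93. The list kept 4, 4 and 7 raised members without flg22 replicate B, flg22 replicate C and mock replicate C. By contrast, 0 of 21 chaperones and folding enzymes of the endoplasmic reticulum passed the test in either direction (median -0.13). In that list 2 genes were higher and 4 lower at an unadjusted p under 0.05, and DESeq2 called 0.

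Among secreted antimicrobial proteins the calls fell on the chitinases. Of 17 chitinases 4 were raised (23.5%, against 2.54% of all genes tested) and 0 lowered. AT2G43620 (chr2:18093694-18095093) had 34.8, 55.9 and 71.4 CPM in flg22 and 4.37, 2.23 and 5.42 CPM in mock, a 12.8-fold rise (log2 fold change 3.67, SE 0.40, adjusted p = 0.0137 from edgeR). AT4G01700 had 87.2, 122 and 147 CPM in flg22 and 53.9, 47.2 and 47.4 CPM in mock, and AT1G02360 had 255, 305 and 326 CPM in flg22 and 182, 165 and 136 CPM in mock. The chitinase count was 0, 2, 2 and 1 without flg22 replicate B, flg22 replicate C, mock replicate A and mock replicate C. Of 23 beta-1,3-glucanases and of 12 other pathogenesis-related proteins and defensins, edgeR called 0 (medians -0.05 and -0.11). At an unadjusted p under 0.05, 2 glucanases were lower and 1 gene of the other list was higher, and DESeq2 called 0 in either.

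Raised genes of indole glucosinolates included regulators, enzymes of synthesis and breakdown, and a transporter. Of 23 genes of indole glucosinolate synthesis, modification and breakdown 10 were raised (43.5%), 0 lowered and 13 did not pass, with a median log2 fold change of 0.34. CYP81F2 hydroxylates indol-3-ylmethyl glucosinolate, and the IGMT methyltransferases complete the conversion to the methoxylated form used in callose signalling. CYP81F2 (AT5G57220) had 334, 368 and 424 CPM in flg22 and 170.5, 143 and 97.6 CPM in mock, a log2 fold change of 1.46 (SE 0.22, adjusted p = 0.0282 from edgeR). IGMT2 had 304, 366 and 397 CPM in flg22 and 105, 87.0 and 71.6 CPM in mock, a log2 fold change of 2.02 (SE 0.16, adjusted p = 0.0027 from edgeR). IGMT4, IGMT3 and IGMT1 rose by 1.65, 1.31 and 1.03. These genes lie in a tandem array, and 24.2% of the 100-base windows of IGMT2 and 2.94% of those of IGMT4 occur elsewhere in the genome. Which genes hold the other copies was not recorded. Whether reads of one gene were lost or counted for another was not tested. MYB51, the main regulator of the pathway in defence, had 83.7, 108 and 129 CPM in flg22 and 42.4, 29.8 and 27 CPM in mock. Without flg22 replicate B, flg22 replicate C and mock replicate C, 4, 4 and 7 of the list were raised, and IGMT2 was called in all 6 fits. Of 22 genes of the aliphatic branch 0 passed in either direction, with a median of -0.47. Of these 22, 4 had a positive fold change, against 49% of all genes tested. There 2 genes were higher and 3 lower at an unadjusted p under 0.05, and DESeq2 called 1 lowered.

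Related pathways were raised at few points. Of 22 genes of tryptophan, camalexin and 4-hydroxyindole synthesis 3 were raised (13.6%, against 2.54% of all genes tested), namely the regulators WRKY33 and MYB122 and the tryptophan synthase gene TSB1 (log2 fold change 0.42). That count was 0 without flg22 replicate B or C, 1 without mock replicate A or C, and 7 without mock replicate B. Of 33 genes of phenylpropanoid, lignin and coumarin synthesis 0 were raised and 1 was lowered, FAH1, a hydroxylase of syringyl lignin, with 7.68, 5.71 and 6.81 CPM in flg22 and 13.4, 9.40 and 14.4 CPM in mock. The large detoxification families gave shares near the background, with 1 of 46 glutathione transferases (2.17%), 1 of 93 UDP-glycosyltransferases (1.08%) and 4 of 141 cytochromes P450 (2.84%) raised. GSTU11 had 6.12, 4.40 and 5.40 CPM in flg22 and 1.46, 0.956 and 1.54 CPM in mock. CYP706A2 had 36.8, 51.4 and 63.5 CPM in flg22 and 12.3, 3.35 and 4.94 CPM in mock, but 52.1% of its windows occur elsewhere, and it was called in 1 of the 6 fits without 1 library.

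Of 94 ABC and MATE transporters 4 were raised (4.26%, against 2.54% of all genes tested, median 0.03). These 4 were called in all 6 fits, and they include PEN3, which also stands in the secretion and indole glucosinolate lists. AT4G23030, a MATE efflux gene, had 7.55, 13.8 and 12.4 CPM in flg22 and 2.59, 1.12 and 1.62 CPM in mock, a log2 fold change of 2.68 (SE 0.32, adjusted p = 0.00402 from edgeR). AT4G21903, another MATE gene, had 29.9, 30.1 and 27.4 CPM in flg22 and 12.5, 9.40 and 7.77 CPM in mock, a log2 fold change of 1.59 (SE 0.16, adjusted p = 0.00193 from edgeR). DTX1, a MATE exporter of xenobiotics, had 60.9, 71.0 and 62.8 CPM in flg22 and 30.7, 36.7 and 26.8 CPM in mock. Among 12 hexose transporters 1 was raised (8.33%). It was ERD6, with 876, 1139 and 1161 CPM in flg22 and 590.0, 429 and 506 CPM in mock. The hexose list had 0 calls without flg22 replicate B, flg22 replicate C or mock replicate C.

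Among hormone genes the largest step was in ethylene synthesis. ACS7, which makes the ethylene precursor ACC, had 19.9, 15.2 and 20.6 CPM in flg22 and 4.37, 4.14 and 4.21 CPM in mock, a 4.37-fold rise (log2 fold change 2.13, SE 0.17, adjusted p = 0.000597 from edgeR), and was called in all 6 fits. All 29 tested ethylene genes had a positive fold change (median 0.38), against 49% of all genes, but 3 passed the test. That share was 10.3%, against 2.54% of all genes tested. Of 31 salicylic acid genes 4 were raised (12.9%): SARD1, an activator of salicylic acid synthesis, with 8.33, 12.1 and 14.2 CPM in flg22 and 5.50, 3.82 and 2.91 CPM in mock, PAD4 (log2 fold change 0.54) and the helper NLR genes ADR1-L1 (0.51) and ADR1-L2 (0.41). The salicylic acid count was 0 without flg22 replicate B, flg22 replicate C or mock replicate C. Of 31 jasmonate genes JAZ1 (0.90) and JAV1 (0.64), which repress jasmonate responses, were raised (6.45%), and 0 of them without flg22 replicate B, flg22 replicate C or mock replicate C.

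Several processes gave few calls or none. Of 22 markers of osmotic stress and abscisic acid 0 passed (median 0.02), as did 0 of 33 genes of root hair and expansion growth (-0.03), 0 of 25 genes of the Casparian strip and suberin (0.18) and 0 of 15 listed genes of the SUMO pathway (0.02). The SUMO list held 16 genes of the count table, fewer than the components that the study followed. The rest of the pathway is not described here. Among 65 auxin response genes IAA28 was raised by 0.31, a call lost in each of the 6 fits. In edgeR at an unadjusted p under 0.05, 4 of the osmotic stress genes, 7 of the Casparian strip and suberin genes, 1 of the root hair genes and 1 of the SUMO genes were higher in flg22, and 1 SUMO gene was lower. DESeq2 called 1 osmotic stress gene and 1 Casparian strip and suberin gene raised and 0 in the other 2 lists. Of 41 expansins and XTH wall enzymes 3 were raised (XTH2, XTH18 and XTH24), or 7.32% against 2.54% of all genes tested. The count was 0 without flg22 replicate B, flg22 replicate C or mock replicate C and 1 without mock replicate A or B. At the same unadjusted threshold, 1722 of the 18230 genes tested were higher and 1470 lower in flg22, so a gene without a call here may differ by less than this design could detect.

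**Figure D3:**
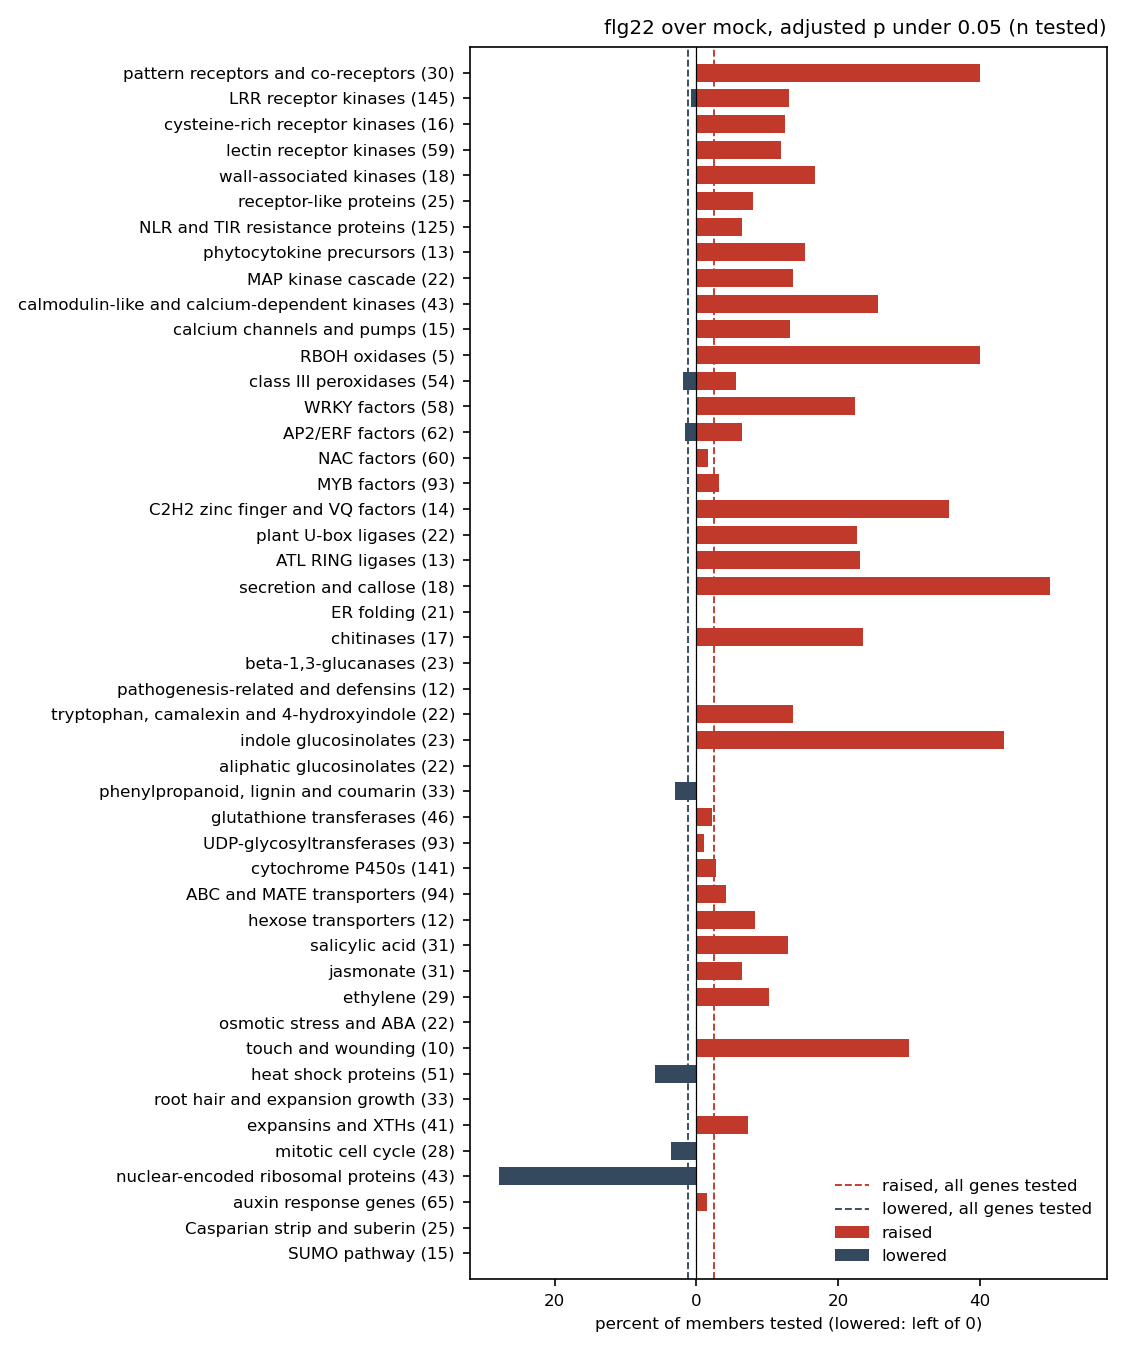
Share of tested members (percent, horizontal axis) raised to the right and lowered to the left of 0 by flg22 at an adjusted p under 0.05, for each gene list, with the number tested in brackets and dashed lines at the shares over all genes tested (2.54% raised, 1.14% lowered). Secretion and callose reached 50%, indole glucosinolates 43.5% and pattern receptors 40%, while on the lowered side the ribosomal list reached 27.9%.

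Genes outside the lists made up 96 of the 150 raised DEGs, and they were grouped by product name after their values were seen. AT4G10530, a subtilase gene (chr4:6508600-6511670), had 28.5, 52.0 and 41.9 CPM in flg22 and 4.69, 7.97 and 4.21 CPM in mock, a 7.5-fold rise (log2 fold change 2.91, SE 0.32, adjusted p = 0.00866 from edgeR). It shares 25.1% of its windows with other places in the genome. GAD4, a glutamate decarboxylase that makes GABA, had 19.8, 20.6 and 32.1 CPM in flg22 and 4.53, 5.26 and 1.62 CPM in mock. AT5G56960, the helix-loop-helix gene with 3 W-boxes, had 15.7, 21.2 and 19.7 CPM in flg22 and 4.69, 3.98 and 3.32 CPM in mock, a log2 fold change of 2.27 (SE 0.19, adjusted p = 0.000597 from edgeR). AT3G29000, an EF-hand calcium-binding gene, had 9.76, 6.78 and 9.87 CPM in flg22 and 2.75, 2.07 and 0.972 CPM in mock. AT3G50160, which encodes a membrane protein with a DUF247 domain, had 4.43, 5.12 and 6.46 CPM in flg22 and 0.809, 0.319 and 0.810 CPM in mock. Of 951 tested genes with uncharacterized products 27 were raised (2.84%, beside 2.54% of all genes) and 19 were raised DEGs, which include AT5G44568 and AT1G51913 (log2 fold changes 2.63 and 2.33). Over all 18230 genes tested 150 were raised DEGs (0.823%).

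Product families differed in their share of raised genes. RING finger proteins (8 of 234, 3.42%) and F-box proteins (2 of 151, 1.32%) lay near or under the 2.54% of all genes. Of 41 ankyrin repeat proteins 5 were raised (12.2%). AT2G24600 had 10.5, 13.4 and 9.63 CPM in flg22 and 2.1, 0.956 and 1.62 CPM in mock, and the neighbours AT5G54710 and AT5G54720 had log2 fold changes of 2.13 and 2.25. Of 103 ARM repeat and CMPG proteins, taken as 1 group, 6 were raised (5.83%). Among them were the ARM repeat genes AT5G37490 (2.63) and AT3G02840 (2.86) and the ligase genes CMPG1 (1.08) and CMPG2 (1.26). The product names of the CMPG genes do not mention an ARM repeat. Of 40 pectin methylesterases and their inhibitors, which alter wall stiffness, 4 were raised (10%) and 2 lowered (5%, against 1.14% of all genes). ATPMEPCRB (AT4G02330) had 22.1, 30.3 and 30.9 CPM in flg22 and 3.07, 6.21 and 4.37 CPM in mock, a 6.12-fold rise (log2 fold change 2.61, SE 0.23, adjusted p = 0.00142 from edgeR), and AT3G10720 had 291, 403 and 446 CPM in flg22 and 182, 168 and 186 CPM in mock. Of 17 berberine bridge oxidases, which oxidise oligosaccharides and indolic compounds, 3 were raised (17.6%) and 15 had a positive fold change, against 49% of all genes. The deadenylase genes CAF1a and CAF1b (log2 fold changes 1.09 and 1.28), which shorten mRNA tails, and the phosphatase genes AT1G07160 (2.1) and PP2C5 (1.87) were raised as well. The ankyrin count was 1 without flg22 replicate B, flg22 replicate C or mock replicate C. AT2G24600, AT5G37490, ATPMEPCRB and AT5G56960 were called in all 6 fits without 1 library, and GAD4 was called in 3.

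Lowered genes were few and moved little. Of the 6 lowered DEGs, sks15 and sks16 encode relatives of the SKU5 protein of directional root growth. sks15 had 28.8, 27 and 24.3 CPM in flg22 and 48.9, 64.4 and 47.9 CPM in mock, a log2 fold change of -1.0 (SE 0.13, adjusted p = 0.00462 from edgeR), and was called in all 6 fits. sks16 had 16.3, 14.0 and 12.4 CPM in flg22 and 28.5, 32.5 and 25.6 CPM in mock. MAN7, a mannanase gene, had 4.82, 6.07 and 3.88 CPM in flg22 and 8.74, 14.0 and 8.99 CPM in mock, and lost its call in each of the 6 fits, as did AT1G10530. The remaining lowered DEGs were AT3G19430 and AT2G37700, called in 2 fits each. The 207 genes lowered at any fold had a median log2 fold change of -0.38. Ribosomal proteins were the main group among them. Of the 43 nuclear-encoded ribosomal proteins on the list 12 were lowered and 0 raised (median -0.26), and 41 had a negative fold change. Over all 356 tested genes with ribosomal in their product name, a group formed after the values were seen, 99 were lowered (27.8%, against 1.14% of all genes) and 0 raised, with a median of -0.28. RPL3B had 65.3, 54.9 and 57.8 CPM in flg22 and 82.3, 96.7 and 83.4 CPM in mock. The number of lowered genes among the 356 was 53, 0, 1, 65, 76 and 2 without flg22 replicates A, B and C and mock replicates A, B and C in turn, and 1 with a replicate block. Of 51 heat shock proteins 3 were lowered (5.88%) and 0 raised. They were the organellar chaperones Hsp89.1 (log2 fold change -0.53), mtHsc70-1 (-0.33) and HSP60 (-0.32), and the count was 0 without flg22 replicate B or C and 1 without mock replicate B or C. Of 28 mitotic cell cycle genes 0 were raised and 1 was lowered (median -0.19). Among the 28, 2 had a positive fold change, against 49% of all genes tested. The lowered gene, CDC20.1 (log2 fold change -0.41), lost its call in each of the 6 fits without 1 library.

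The response was set against that to 300 mM mannitol, an osmotic stress with its own 3 control libraries, given on plates and not in liquid. Of the 150 raised DEGs 63 were also raised DEGs of mannitol, which is 42% of the flg22 genes and 3.7% of the 1701 mannitol genes. Of the 150, 124 were tested under mannitol, and the 63 make up 50.8% of these. Over all 18939 genes tested under mannitol 8.98% were raised DEGs. The difference between the responses was tested in a fit of 12 libraries. Over 19439 genes the flg22 response lay above the mannitol response in 1393 (7.17%) and below it in 1278 (6.57%), at an adjusted p under 0.05 and a difference of at least 1 on the log2 scale. Of the 150 raised DEGs 48 lay above and 18 below. The flg22 contrast that chose these genes is part of that difference, so these counts are a description.

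The gene groups differed in which side they took. Of the 32 osmotic stress and abscisic acid genes tested in that fit 29 lay below and 1 above, and 31 of 32 were raised by mannitol. Of 152 LRR receptor kinases 40 lay above and 1 below, of 61 lectin receptor kinases 19 above and 1 below, and of 136 NLR and TIR genes 27 above and 4 below. Mannitol by itself lowered 84 of 144 LRR receptor kinases (median -0.52), 20 of 54 lectin receptor kinases (-0.21) and 42 of 120 NLR and TIR genes (-0.34). Over all 18939 genes tested under mannitol, 4933 were raised and 4929 lowered at any fold (median -0.02). The differences for these receptor lists thus hold a fall under mannitol as well as the flg22 response. Of 33 genes of root hair and expansion growth 18 lay above and 0 below. Their median log2 fold change was -1.66 under mannitol and -0.03 under flg22. AT4G21903 had the largest difference among the raised DEGs tested under mannitol, with a log2 fold change of 1.59 under flg22 and -4.31 under mannitol (difference 5.91, SE 0.63, adjusted p = 2.42e-05 from edgeR). It had 0.0, 0.0 and 0.732 CPM in mannitol and 4.7, 7.34 and 4.47 CPM in the plate control. The size of its fall and of the difference therefore rests on few reads. ATPMEPCRB had 2.61 under flg22 and -0.17 under mannitol (difference 2.81, SE 0.28, adjusted p = 2.78e-06 from edgeR). EXO70H1 and CML42 also rose under flg22 and fell under mannitol, with differences of 2.33 and 2.59. On the other side TCH3 had 1.43 under flg22 and 4.37 under mannitol (difference -2.91, SE 0.35, adjusted p = 0.000104 from edgeR), and ZAT10, CML38 and FRK1 had differences of -1.54, -1.65 and -1.30.

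For other defence genes no difference was called. PROPEP3 had log2 fold changes of 2.09 under flg22 and 1.78 under mannitol (difference 0.33, SE 0.29, adjusted p = 0.445 from edgeR), WRKY53 had 2.17 under flg22 and 2.25 under mannitol, and CYP81F2 had 1.46 under flg22 and 1.5 under mannitol (difference -0.02, SE 0.28). A difference that misses the threshold does not show that the responses were equal. The fold changes of CYP81F2 also start from different levels. It had 170.5, 143 and 97.6 CPM in mock and 5.99, 4.83 and 6.14 CPM in the plate control. Salt (150 mM NaCl) was compared with the same mock libraries as flg22, so only the values are set side by side. CYP81F2 had 1.46 under flg22 and -4.68 under salt, PEN3 had 1.02 under flg22 and -1.82 under salt, and IGMT4 had 1.65 under flg22 and -2.66 under salt. WRKY30 was raised by flg22 (4.08) and by salt (2.12), and ACS7 by flg22 (2.13) and by salt (3.3). Of the indole glucosinolate list, flg22 raised 10 and lowered 0 of 23, and salt raised 3 and lowered 11. Salt gave far more calls over all genes, with 4154 raised and 3592 lowered of 18484 tested. For flg22 these were 463 and 207 of 18230.

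**Figure D4:**
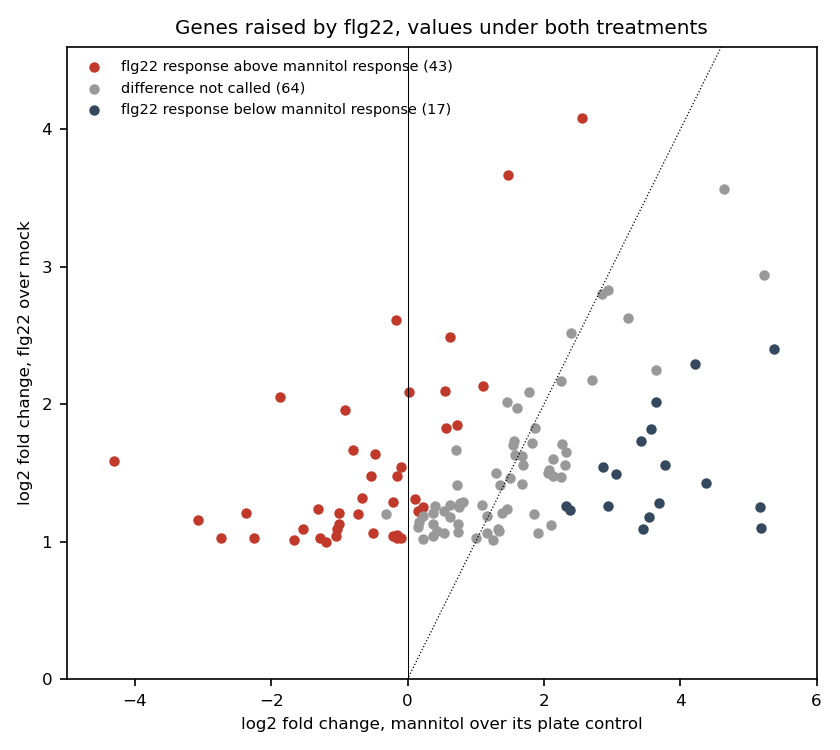
Log2 fold changes of the 124 raised DEGs that were tested under mannitol, under flg22 over mock (vertical axis) and mannitol over its plate control (horizontal axis), coloured by the test of the difference, with a dotted line where the values are equal. The flg22 response lay above in 43, below in 17 and was not called different in 64. AT4G21903 is the point farthest left, at -4.31 under mannitol and 1.59 under flg22. Its mannitol libraries had 0.0, 0.0 and 0.732 CPM.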

How the data were processed

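The authors deposited 1 table of whole-number read counts per gene. Per their methods, nonstranded poly(A) libraries of roots, taken 3 h after treatment with 1 μM flg22 (250 nM per the labels), were trimmed with Trimmomatic, mapped to Araport11, cleared of duplicates with Picard and counted with HTSeq, with no normalization. Versions are not given in the sources used here. Without strand, reads of overlapping genes on opposite strands, as for FLS2, FRK1, BAK1 and WRKY33, cannot be told apart. All 15 columns were assigned by name, and 0 were left unused. The mannitol control columns are named as a second mock group with letters A to C, and were taken as a group.

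flg22 was tested against mock in edgeR 4.0.16 (R 4.3.3) with TMM, filterByExpr (minimum count 10), robust quasi-likelihood F tests and Benjamini-Hochberg adjustment over the 18230 genes tested. The difference from mannitol was an interaction term over 12 libraries. Separate cultures are not stated for the replicates, so p-values measure the spread between samples. The floors of 3 counts cover counting error only. The SEs come from the quasi-likelihood fits, which take in the spread between libraries. Gene lists were described by counts and medians. Named genes were, per list, the 3 largest called increases and 2 largest decreases with at least 2 CPM on average and groups that do not overlap, outside the lists 12 and 6, and 7 fixed genes. Other members are named from the same calls. Members and lists were chosen with earlier results of these data known, and 1 gene wrongly matched to the auxin list was taken out afterwards. Coordinates and promoters are from RefSeq TAIR10.1. Windows of 100 bases were matched to that genome. The tests were tested on simulated counts. The alternatives were DESeq2 1.42.0 (size factors, Wald test), other count filters, a replicate block, all 15 libraries in 1 fit, thinning to 6094503 counts and leaving out each library.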

Additional observations from a re-analysis of the deposited data

How the results depend on the processing

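The counts of calls depended on the libraries more than on the tool. Raised DEGs (150) numbered 50 to 169 when 1 library was left out, lowered DEGs (6) 0 to 11, genes raised at any fold (463) 94 to 539 and genes lowered at any fold (207) 4 to 182. The lowest counts came without flg22 replicate B or C. The letters of the replicates did not pair the libraries: same-lettered flg22 and mock libraries had deviations correlated at -0.126, -0.248 and -0.047. With a replicate block the counts were 68 raised and 3 lowered DEGs, and 132 raised and 8 lowered genes at any fold. With all 15 libraries in 1 fit, 116 genes were lowered at any fold. Under DESeq2 size factors, DESeq2's Wald test, either count filter and thinning, these 4 counts stayed within 1.5 times. Of 110 named genes, all called, 28 were called in each of the 6 fits without 1 library, 42 with the replicate block, and 110 kept their sign in the 6 fits. The calls lost were 78 without flg22 replicate B, 75 without flg22 replicate C and 64 without mock replicate C, against 2 with DESeq2 size factors and 4 with DESeq2's Wald test. The cause was not tested. The counts of the difference from mannitol, 1393 above and 1278 below, ranged over 1260 to 1485 and 1155 to 1281 without 1 library. With a replicate block within each experiment they were 1294 and 1171.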
